A study of Homo sapiens with 4 samples.

Results

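The globin genes of both human loci were examined in K562 cells carrying the JAZF1-SUZ12 fusion and in mock cells. The members were the 10 rows of the count table, of 35606 rows in all, whose symbol is HBZ, HBM, HBA2, HBA1 or HBQ1 from the alpha-globin locus or HBE1, HBG2, HBG1, HBD or HBB from the beta-globin locus. K562 is an established human leukaemia line with erythroid traits, and JAZF1-SUZ12 is the fusion oncogene of endometrial stromal sarcoma, in which a part of JAZF1 is joined to SUZ12, a core subunit of Polycomb repressive complex 2 (PRC2). The series holds 4 poly(A)-selected RNA-seq libraries, 2 of cells labelled JAZF1-SUZ12 (fusion libraries) and 2 labelled mock. Both groups are K562, a single line, and how the fusion was introduced is not given in the sources used here. Nothing says that the libraries of a group came from separate cultures, so a p-value here measures only the spread between these libraries, which may be technical.

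Haemoglobin is built from alpha-type and beta-type chains, and each locus carries its genes in the order in which they are used in development. At the alpha locus HBZ encodes the embryonic zeta chain, and HBA2 and HBA1 encode the alpha chain of fetal and adult life. HBM and HBQ1 encode the minor mu and theta chains. At the beta locus HBE1 encodes the embryonic epsilon chain, HBG2 and HBG1 the fetal gamma chains, and HBD and HBB the adult delta and beta chains. K562 cells are known for making embryonic and fetal globins and hardly any adult beta chain. PRC2 methylates lysine 27 of histone H3 and keeps many developmental genes silent.

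Near-identical genes set a limit on what these counts can separate, so coding stretches of the genes concerned are shown first, from GENCODE 29 transcripts on GRCh38. The first set, chosen to show how HBZ stands apart from the alpha pair, gives bases 1 to 60 of the coding sequence, counted from the A of the start codon, with capitals where HBZ differs from HBA1.
HBZ: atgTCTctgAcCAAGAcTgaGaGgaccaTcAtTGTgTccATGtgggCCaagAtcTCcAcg
HBA2: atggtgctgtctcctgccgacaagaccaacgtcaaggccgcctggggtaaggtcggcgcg
HBA1: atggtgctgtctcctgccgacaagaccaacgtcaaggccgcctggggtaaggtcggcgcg
These stretches lie in exon 1 of each gene on the plus strand, at chr16:152910-152969 for HBZ, chr16:172913-172972 for HBA2 and chr16:176717-176776 for HBA1. HBA2 and HBA1 have 0 mismatches over the 426 coding bases, whereas HBZ differs from both at 134 of them. Of the runs of 31 bases in the reference HBA2 and HBA1 transcripts, 450 are common to both, which is 82.4% of those of HBA2 and 82.3% of those of HBA1. HBZ shares none with either. The share of reads that could not be assigned to HBA2 or HBA1 was not measured.

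The next sets hold the only coding differences between the gamma genes, and give bases 201 to 260 and then 381 to 440 of HBE1, HBG2 and HBG1. Capitals mark the base that differs between HBG2 and HBG1, and in HBE1 the bases that differ from either gamma gene.
HBE1: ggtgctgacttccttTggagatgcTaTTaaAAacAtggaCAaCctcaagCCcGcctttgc
HBG2: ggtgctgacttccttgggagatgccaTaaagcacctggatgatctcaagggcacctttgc
HBG1: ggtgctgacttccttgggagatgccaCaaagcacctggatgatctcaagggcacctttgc
HBE1: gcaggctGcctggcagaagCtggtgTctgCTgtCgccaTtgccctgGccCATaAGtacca
HBG2: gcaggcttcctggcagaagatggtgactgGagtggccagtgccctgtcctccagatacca
HBG1: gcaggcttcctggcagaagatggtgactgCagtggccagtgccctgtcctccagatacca
The gamma stretches lie on the minus strand in exons 2 and 3, at chr11:5254347-5254406 and chr11:5253281-5253340 for HBG2 and at chr11:5249423-5249482 and chr11:5248363-5248422 for HBG1. Those of HBE1 lie in exons 3 and 4, at chr11:5269509-5269568 and chr11:5268473-5268532. HBG2 and HBG1 differ at 2 of 441 coding bases, T227C and G410C, with the HBG2 base first and the position counted from the A of the start codon. They share 430 runs of 31 bases, 73.6% of those in the reference HBG2 transcript and 57.4% of those of HBG1. HBE1 differs from each gamma gene at 73 coding bases, and HBD differs from HBB at 31. The division of reads within the HBA2 and HBA1 pair and within the HBG2 and HBG1 pair may therefore depend on how shared reads were divided, and the sum of each pair is given as well.

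The libraries held between 17260936 and 24423028 estimated counts. As a check of the labels, JAZF1 had 574 and 731 counts in the fusion libraries and 12 and 27 in the mock libraries, and SUZ12 had 4754 and 6582 against 2781 and 2798. GEO's source label reads uterus for every sample. Of 8 markers of uterine stroma, COL3A1, LUM and HOXA11 had at most 3 counts in every library. The list summed to between 5.49 and 8.52 CPM, where CPM is 1e+06 times a gene's share of the library's counts. PGR made up most of that sum, at 6.78 and 6.02 CPM in fusion and 4.84 and 4.37 CPM in mock libraries. ESR1 had 14 and 11 counts against 4 and 4, and DCN 11 and 14 against 20 and 6. PDGFRA had 3 and 0 counts against 5 and 6, and THY1 1 and 4 against 5 and 6. All 9 erythroid markers had over 3 counts in each library, with a sum of 3805 and 3804 CPM in fusion and 3423 and 3342 CPM in mock libraries. The transferrin receptor TFRC made up most of that sum, at 3115 and 3075.5 against 2773 and 2702 CPM. Of these 9 markers 3 rose and 0 fell (edgeR), against 13.3% higher and 11.4% lower over all genes tested. The 3 were TFRC, by 0.16 on the log2 scale (edgeR, adjusted p = 0.00718), ALAS2 and SLC4A1. ALAS2, the first enzyme of erythroid haem synthesis, was at 89.2 and 94.8 against 56.0 and 57.7 CPM and rose by 0.68 (edgeR, adjusted p = 5.74e-07). SLC4A1, the red-cell anion exchanger band 3, was at 16.9 and 19.5 against 8.76 and 7.14 CPM and rose by 1.18 (edgeR, adjusted p = 1.30e-05). GYPB at -0.14 and EPOR at -0.13 did not pass (edgeR, adjusted p = 0.379 and 0.228). ALAS2, SLC4A1, TFRC, GYPB and EPOR were named after their values were seen, as were PGR, DCN, ESR1, PDGFRA, THY1 and LYZ. Markers of myeloid cells summed to 24.8 and 24.2 CPM against 35.4 and 31.7 CPM. LYZ made up most of that sum, at 23.5 and 22.6 against 34.4 and 29.9 CPM. The other myeloid markers had at most 33 counts in any library. Megakaryocyte markers summed to 50.2 and 51.2 CPM against 49.7 and 46.5 CPM, with PF4, PPBP and GP9 at 3 counts or fewer in all libraries. Lymphoid markers summed to between 4.87 and 7.25 CPM. The part of these differences in the globin results was not tested. In bulk RNA, a change in the fraction of cells that make a transcript and a change in the amount per cell cannot be told apart.

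Globin transcripts were abundant in every library, and those of the beta locus were nearly all of the embryonic and fetal kind. At the alpha locus HBA2 and HBA1, genes of fetal and adult life, together took most of the counts. The 10 genes together took 1.12% and 1.10% of all counts in the fusion libraries and 0.970% and 0.947% in the mock libraries. The groups did not overlap, and the exact two-sided permutation test gave p = 0.333, which is the smallest value that 2 libraries against 2 can give. Levels of different genes were compared as CPM per kilobase of the longest protein-coding transcript, a length chosen after seeing the data, and checked against the longest transcript of any kind. The lengths differ for HBG1 (779 and 1464 bases), HBA1 (577 and 674), HBA2 (576 and 640) and HBM (506 and 592). In mock cells HBG2 stood highest with either length, at 5248 ± 168 CPM per kilobase (SD, n = 2). HBG1 was at 2749 ± 76.2, HBA1 at 1834 ± 66.4 and HBE1 at 1812 ± 40.3, and the libraries of HBA1 and HBE1 overlapped. With the longest transcript of any kind HBG1 was at 1463 ± 40.6 and HBA1 at 1570 ± 56.8, both below HBE1, so the order of these 3 genes depends on the length used. Below them were HBA2 at 804 ± 7.62 and HBZ at 741 ± 26.0 CPM per kilobase, but HBA2 was at 723 ± 6.86 with the longest transcript of any kind and then overlapped HBZ. HBD at 44.8 ± 6.88 and HBQ1 at 39.1 ± 1.25 overlapped as well. HBM and HBB lay far below, at 0.65 and 0.064 CPM per kilobase.

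In fusion cells HBG2 again stood highest with either length, at 5693 ± 41.5 CPM per kilobase (SD, n = 2). HBG1 was at 3217 ± 30.4, or at 1712 ± 16.2 with the longest transcript of any kind, which is below HBE1 at 2175 ± 11.9. HBE1 lay above HBA1, at 1962 ± 26.4 or 1679 ± 22.6, and HBZ at 1362 ± 38.0 lay above HBA2, at 799 ± 36.4 or 719 ± 32.7. In neither pair did the libraries overlap with either length. Whether these orders differ from mock depends on the length: with the longest transcript of any kind, HBE1 was above HBA1 and HBZ was level with HBA2 in mock cells already. HBD was at 57.0 ± 2.83, HBQ1 at 38.0 ± 0.13, HBB at 1.15 ± 0.22 and HBM at 0.94 ± 0.039 CPM per kilobase.

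**Figure D1:**
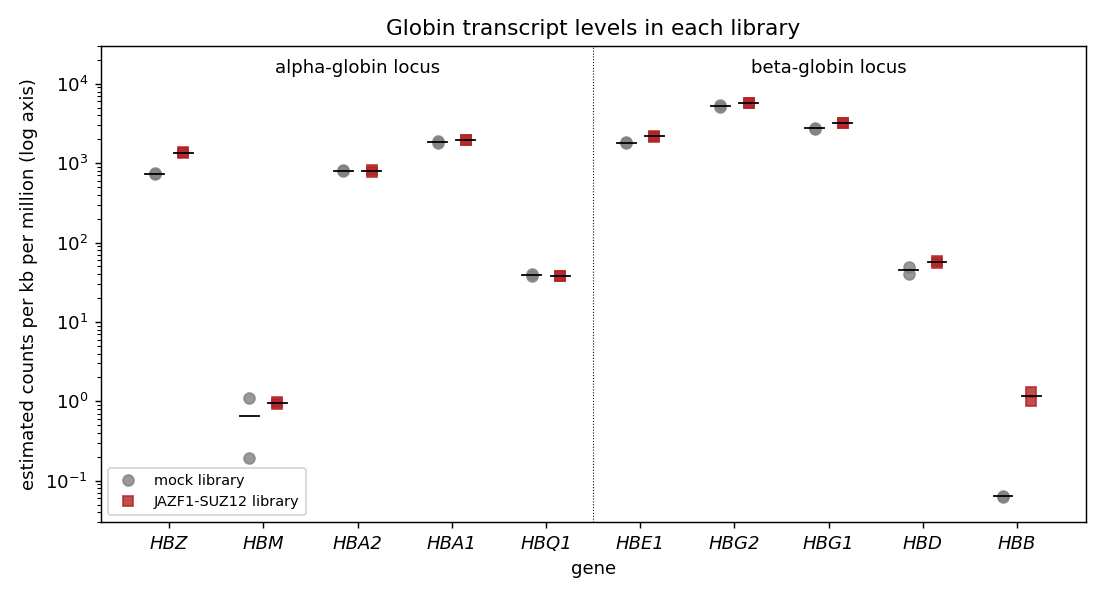
Level of each globin gene in each library, as CPM per kilobase of transcript on a log axis. Grey circles are mock and red squares fusion libraries, and the black bar is the mean of 2 libraries. HBZ moves from 741 to 1362 and HBB from 0.064 to 1.15, while HBA2 is at 804 and 799.

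Of the 10 genes, 5 rose in fusion cells and none fell when compared by edgeR's quasi-likelihood test with Benjamini-Hochberg adjustment over 14750 genes. The 5 were HBZ, HBE1, HBG1, HBD and HBB. Across all genes tested, 13.3% were called higher, 11.4% lower and 24.7% in either direction. At an unadjusted p under 0.05 (edgeR), 6 of the 10 genes passed, and all 6 were higher in fusion cells. Of all 14750 genes tested, 5315 passed that threshold in either direction. DESeq2 called 6 higher and 0 lower, with 9.19% of all genes called higher and 16.3% in either direction. The median log2 fold change was 0.22 for the 10 genes and 0.0032 for all genes tested. HBB entered the test only through its fusion libraries, so a difference was built into its selection, and the other 9 genes include 4 that rose.

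HBZ, the embryonic zeta gene at the start of the alpha cluster (ENSG00000130656, chr16:152687-154503), changed most among the abundant globins. Its estimated counts were 18105 and 24627 in the fusion libraries and 11152 and 12207 in the mock libraries, which is 1049 and 1008 CPM against 545 and 573 CPM. Both fusion libraries stood well above both mock libraries. HBZ rose by 0.86 on the log2 scale, or 1.81-fold (SE 0.044 in log2, edgeR, adjusted p = 2.47e-09). For HBZ the authors' deposited table gave 0.84. The gene model of HBM overlaps that of HBZ on the same strand over 612 bases, and HBM had at most 12 counts in any library.

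The alpha genes proper were near the same level in both groups. HBA1 (ENSG00000206172, chr16:176680-177522) was at 1143 and 1121 CPM in fusion and at 1031 and 1085 CPM in mock libraries. The groups did not overlap, but the log2 fold change of 0.076 had a 95% interval of -0.013 to 0.17 (edgeR, adjusted p = 0.209). HBA2 (ENSG00000188536, chr16:172876-173710) was at 475 and 445 CPM against 460 and 466 CPM, so its groups overlapped. Its log2 fold change was -0.031, with an interval of -0.13 to 0.067 (edgeR, adjusted p = 0.675). When HBA2 and HBA1 were summed before the fit, the log2 fold change of the pair was 0.044 (edgeR, adjusted p = 0.482). The upper bounds of 0.17 for HBA1 and 0.067 for HBA2 lie below the lower bound of 0.76 for HBZ.

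The remaining alpha-locus genes are minor. HBQ1, the theta gene (ENSG00000086506, chr16:180453-181181), had 351 and 499 counts against 438 and 436, or 20.3 and 20.4 CPM against 21.4 and 20.5 CPM. The deposited values of HBQ1 were whole numbers in all 4 libraries. Its log2 fold change was -0.061, with an interval of -0.26 to 0.14 (edgeR, adjusted p = 0.688). HBM, the mu gene (ENSG00000206177, chr16:153892-166768), had 8 and 12 counts against 2 and 12, and at this depth a difference was not detectable (edgeR, adjusted p = 0.686). The value of 0.49 for HBM turned to -0.26 without mock replicate 1.

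Within the beta locus the embryonic gene rose by less than HBZ did. HBE1, the epsilon gene (ENSG00000213931, chr11:5268345-5505652 in an annotation that includes long upstream transcripts), was at 2004 and 1988 CPM in fusion and at 1690 and 1638 CPM in mock libraries. The groups were well apart. HBE1 rose by 0.24 on the log2 scale, or 1.18-fold (SE 0.039 in log2, edgeR, adjusted p = 0.000319). The authors' deposited table gave 0.22 for HBE1.

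Both gamma genes were higher in both fusion libraries, but only HBG1 passed the test. HBG1, the A-gamma gene (ENSG00000213934, chr11:5248079-5249859), was at 2523 and 2489 CPM against 2184 and 2100 CPM in mock. It rose by 0.21 on the log2 scale, or 1.15-fold (SE 0.039, edgeR, adjusted p = 0.00125). HBG2, the G-gamma gene (ENSG00000196565, chr11:5253190-5505605), was at 3971 and 3930 CPM against 3725 and 3560 CPM. Its log2 fold change was 0.096, with an interval of 0.014 to 0.18 (edgeR, adjusted p = 0.0838). The call of HBG2 depended on the setting, since it passed with DESeq2 (adjusted p = 0.0469) and with limma-voom (adjusted p = 0.0377), and over all alternatives the adjusted p ranged from 0.00887 to 0.489. The sum of HBG1 and HBG2, unaffected by the division of reads between these 2 genes, rose by 0.14 (edgeR, adjusted p = 0.0142). HBE1 shares 20 runs of 31 bases with the reference transcript of each gamma gene, so reads shared with HBE1 may still affect the sum. HBG2 took 61.2% and 61.2% of the counts of the pair in fusion and 63.0% and 62.9% in mock libraries.

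The adult beta-type genes stayed at low levels, and each of their calls was lost when 1 library was left out. HBD, the delta gene (ENSG00000223609, chr11:5232678-5243657), had 821 and 1083 counts against 819 and 686, or 47.6 and 44.3 CPM against 40.1 and 32.2 CPM. The lower fusion library lay only slightly above the higher mock library. The log2 fold change of HBD was 0.32 (SE 0.090, edgeR, adjusted p = 0.0148), and without mock replicate 2 it was 0.16 and did not pass (adjusted p = 0.217). HBB, the beta gene of adult haemoglobin (ENSG00000244734, chr11:5225464-5229395), had 13 and 24 counts in the fusion libraries and 1 in each mock library, and passed the filter on low counts only through the former. Scaled to the summed library totals this is an 18.5-fold difference, with an exact 95% counting interval of 4.78 to 159. The fitted log2 fold change of 4.01 depends on the prior count (edgeR, adjusted p = 0.00271), and without JAZF1-SUZ12 replicate 2 the adjusted p was 0.0610. HBB stayed at 0.753 and 0.983 CPM in the fusion libraries. The deposited values of HBB were whole numbers in all 4 libraries, although HBB shares 18.4% of its runs of 31 bases with HBD.

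**Figure D2:**
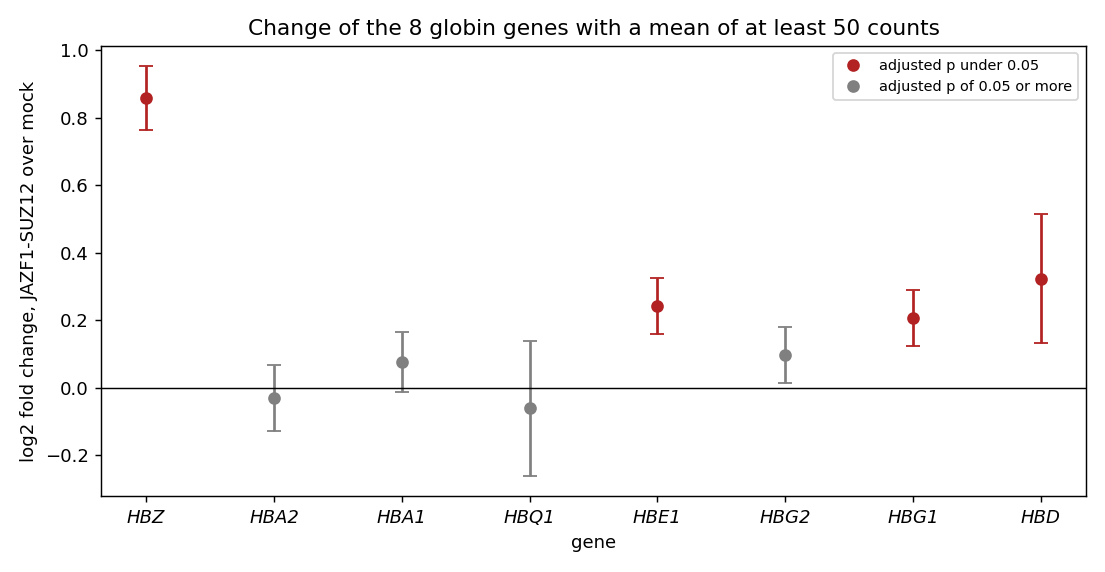
Log2 fold change of JAZF1-SUZ12 over mock for the 8 globin genes with a mean of at least 50 counts, with 95% intervals from edgeR. Red marks an adjusted p under 0.05. HBZ stands at 0.86, whereas HBE1, HBG1 and HBD lie between 0.21 and 0.32 and HBA1, HBA2 and HBQ1 have intervals that cross 0.

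The authors' deposited table differed in its calls, where 3 of the 10 genes had an adjusted p under 0.05, namely HBZ, HBE1 and HBG1, all higher. Of the genes with an adjusted p in the authors' deposited table, 4.93% were called higher, 3.57% lower and 8.5% in either direction. The authors' deposited table gave HBD a log2 fold change of 0.35 (adjusted p = 0.156), HBB 3.35 (adjusted p = 0.241) and HBG2 0.076 (adjusted p = 0.335). All 10 directions in the authors' deposited table were those of the fit made here.

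Composition by developmental stage was compared within each library, where depth cancels. HBZ made up 39.0% and 38.8% of alpha-locus counts in the fusion libraries and 26.5% and 26.7% in the mock libraries. The share of HBA2 and HBA1 together was 60.2% and 60.3% against 72.4% and 72.3%. The ratio of HBZ to the alpha pair was thus 0.648 and 0.644 against 0.366 and 0.369. The groups were far apart relative to the replicate spread of this ratio, with SDs of 0.0033 and 0.0026.

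At the beta locus the composition moved little. HBE1 made up 23.4% and 23.5% of counts in fusion and 22.1% and 22.3% in mock libraries. HBG1 with HBG2 made up 76.0% and 75.9% against 77.4% and 77.2%, and HBD with HBB 0.565% and 0.536% against 0.525% and 0.440%. The ratio of alpha-locus to beta-locus counts was 0.314 and 0.307 against 0.269 and 0.293. In each of these measures the 2 groups did not overlap, and each exact permutation p was 0.333, the smallest that the design allows. By edgeR 1 of 5 alpha-locus and 4 of 5 beta-locus genes were called higher, beside 13.3% of all genes, and the beta-locus count includes HBB, which was selected through its fusion libraries, and HBD, which was lost without mock replicate 2. The ratio of HBZ to HBE1 counts, the embryonic pair, was 0.523 and 0.507 against 0.323 and 0.350.

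**Figure D3:**
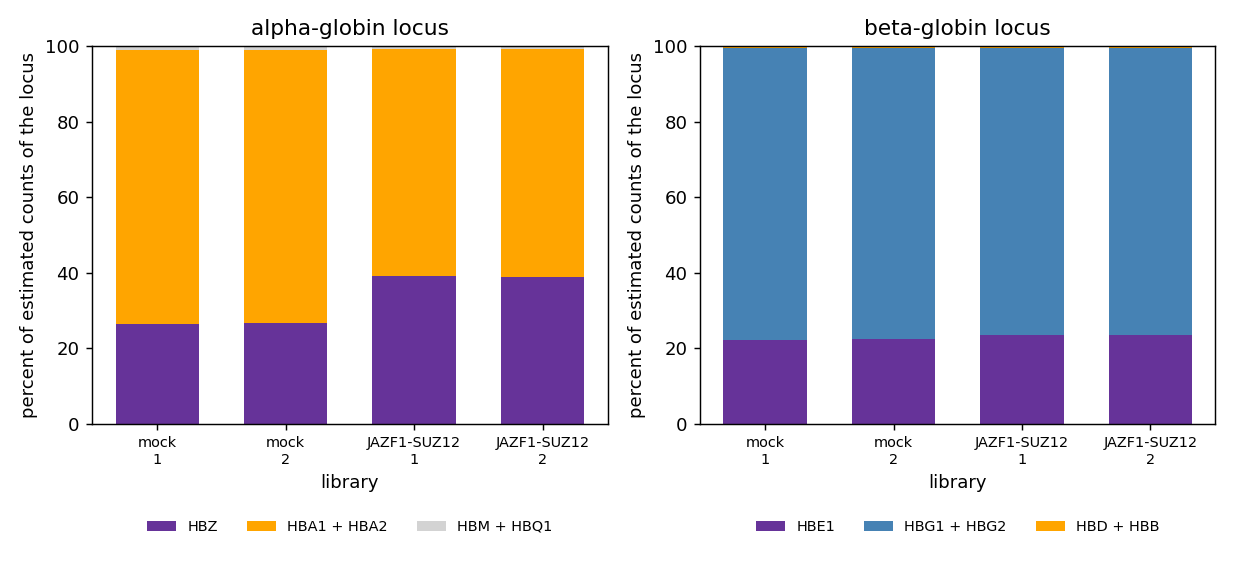
Share of each developmental class in the estimated counts of its locus, one bar per library, alpha locus on the left and beta locus on the right. HBZ takes 39.0% and 38.8% of the alpha locus in fusion libraries against 26.5% and 26.7% in mock libraries, and the beta-locus bars differ by little more than 1 percentage point. HBD with HBB is too small a share to be seen.

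Genes around the loci were read as a list of 20, of which 19 were in the table and 13 had enough counts to be tested. Of these 13, 3 rose and 2 fell (edgeR), against 13.3% higher and 11.4% lower over all genes, and their median log2 fold change was 0.12. Without mock replicate 1 the fit called 1 of 15 neighbours and 2689 genes in all, and without JAZF1-SUZ12 replicate 2 it called 3 of 14 and 2568 in all. HBBP1, the eta-globin pseudogene that lies between the gamma and delta genes, had 591 and 837 counts against 558 and 550. It rose by 0.35 (edgeR, adjusted p = 0.00424). OR51B4, an olfactory receptor gene upstream of HBE1, had 693 and 1000 counts against 602 and 735 and rose by 0.32 (edgeR, adjusted p = 0.00918), but without mock replicate 1 the adjusted p was 0.139. In the authors' deposited table HBBP1 and OR51B4 were higher by 0.30 and 0.30 but did not pass (adjusted p = 0.284 and 0.242). Annotated models of HBE1 and HBG2 extend over OR51B4 on the same strand, and the HBD model extends over HBBP1. Reads of these genes may therefore come from globin transcripts. Whether counting used strand is not given in the sources used here.

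Next to the alpha locus, NPRL3 rose by 0.19, from 99.1 and 106 CPM in mock to 119 and 118 CPM (edgeR, adjusted p = 0.0190). For NPRL3 the authors' deposited table gave 0.26 (adjusted p = 0.045). NPRL3 is a GATOR1 subunit whose introns hold the main alpha-globin enhancers. Without mock replicate 1 it did not pass (adjusted p = 0.206). POLR3K, an RNA polymerase III subunit, and SNRNP25, a minor spliceosome protein, fell by 0.21 and 0.18 on the log2 scale (edgeR, adjusted p = 0.0272 and 0.0426). Neither passed with DESeq2 (adjusted p = 0.109 and 0.124) or without JAZF1-SUZ12 replicate 2 (adjusted p = 0.258 and 0.371).

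Among known regulators of globin genes, more fell than rose. A list of 52 genes held the erythroid activators, the fetal and embryonic globin repressors with their cofactors, and related factors. All 52 were tested, and 21 fell and 2 rose by edgeR, against 11.4% lower and 13.3% higher over all genes. Their median log2 fold change was -0.11, beside 0.0032 for all genes tested. The list was written with results for EED, EZH2 and STAT5A in these data known, so it is no independent evidence of a direction. With 1 library left out in turn, the median log2 fold change of the list ranged from -0.14 to -0.092. That of all genes tested then ranged from -0.0035 to 0.0047. With total counts only the median was -0.087 for the list and 0.026 for all genes tested.

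Erythroid activators on the list did not move together. KLF1, which drives adult beta-globin transcription, was at 165 and 156 CPM against 158 and 155 CPM in mock (edgeR, log2 fold change 0.016, adjusted p = 0.864). GATA1 was at 259 and 282 CPM against 263 and 255 CPM (edgeR, log2 fold change 0.043, adjusted p = 0.562). NFE2, whose product binds the locus control region, was at 338 and 348 CPM against 286 and 301 CPM. It was 1 of the 2 genes that rose, by 0.21 on the log2 scale (edgeR, adjusted p = 0.00340), and did not pass without mock replicate 1 (adjusted p = 0.0625). LMO2, a bridging protein of the complex with GATA1, TAL1 and LDB1, was at 69.8 and 64.0 against 81.9 and 80.5 CPM and fell by 0.31 (edgeR, adjusted p = 0.00219). TAL1 and LDB1 did not pass (edgeR, adjusted p = 0.675 and 0.387). NFE2, LMO2, TAL1 and LDB1 were named after their values were seen. The globin chaperone AHSP had 12 and 17 counts against 5 and 15, too few to show a difference (edgeR, adjusted p = 0.597). MB and NGB, globins of muscle and nerve, had at most 1 count in any library and CYGB at most 7.

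Named repressors moved in both directions. BCL11A, which silences gamma globin in adult cells, was low, with 31 and 57 counts against 15 and 16. It rose by 1.46 (SE 0.41, edgeR, adjusted p = 0.0164), but it did not pass with DESeq2 (adjusted p = 0.0598), without JAZF1-SUZ12 replicate 2 (adjusted p = 0.199) or without mock replicate 1 (adjusted p = 0.0597). SOX6, a repressor of epsilon globin, fell by 0.70, from 195 and 196 counts to 96 and 149 (edgeR, adjusted p = 0.00482), and was likewise named after its values were seen. ZBTB7A, another gamma repressor, fell from 70.6 and 71.6 CPM to 59.8 and 59.8 CPM (edgeR, log2 fold change -0.27, adjusted p = 0.00317). MYB, a factor of immature progenitors that represses gamma globin, fell from 167 and 170 CPM to 143 and 144 CPM (edgeR, log2 fold change -0.25, adjusted p = 0.00135). CHD4, the remodelling ATPase of the NuRD complex, and PRMT5, an arginine methyltransferase, fell by 0.23 and 0.28 (edgeR, adjusted p = 0.000753 and 0.000648). NR2F2, which binds gamma and epsilon promoters as COUP-TFII, fell by 0.42 (edgeR, adjusted p = 0.000156).

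A pair of oncofetal factors linked to fetal globin, LIN28B and IGF2BP1, also fell. LIN28B, the oncofetal RNA-binding protein that blocks let-7 maturation, went from 121 and 116 CPM to 94.5 and 95.7 CPM (edgeR, log2 fold change -0.34, adjusted p = 0.000247). IGF2BP1, another oncofetal RNA-binding protein, went from 383 and 397 CPM to 329 and 322 CPM (edgeR, log2 fold change -0.28, adjusted p = 0.000273). The lowest p in the list belonged to STAT5A, a transcription factor downstream of cytokine receptors and of BCR-ABL, which fell by 0.48 (edgeR, adjusted p = 4.94e-07). EED, a core PRC2 subunit, fell by 0.40 (edgeR, adjusted p = 0.000544). In the authors' deposited table BCL11A had a log2 fold change of 1.37 (adjusted p = 0.292) and EED -0.47 (adjusted p = 0.00485). There SOX6, ZBTB7A and IGF2BP1 were lower but did not pass (adjusted p = 0.188, 0.143 and 0.211). LMO2, MYB, CHD4, PRMT5, NR2F2, LIN28B and STAT5A passed as lower and NFE2 as higher, the directions found here.

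**Figure D4:**
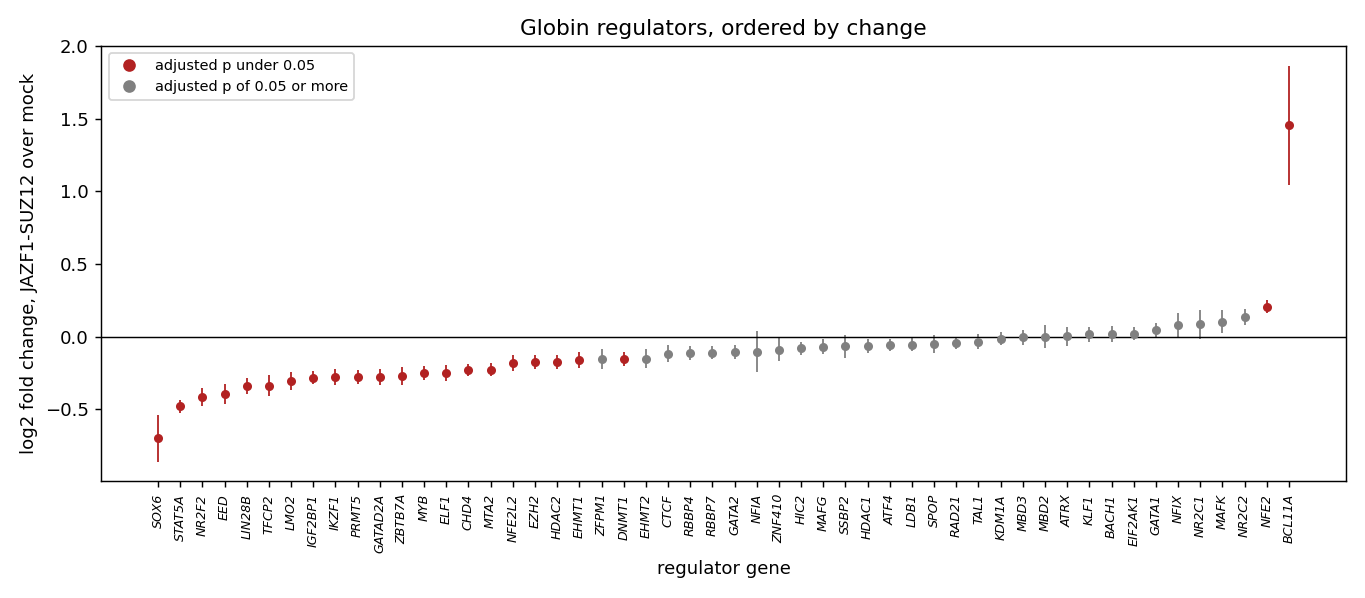
Log2 fold change of 52 globin regulators with the standard error from edgeR, ordered by change, red where the adjusted p was under 0.05. The left side holds 21 genes that fell, led by SOX6 at -0.70, and the only genes that rose are NFE2 at 0.21 and BCL11A at 1.46.

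Promoter sequence was at hand in the RefSeq table for 2 of the 10 genes, HBD and HBM, and the HBD promoter is shown because HBD rose. It covers the 250 bases before the start site at chr11:5234484-5234733 on the minus strand of GRCh38.p14, with capitals on the motifs found.
HBD: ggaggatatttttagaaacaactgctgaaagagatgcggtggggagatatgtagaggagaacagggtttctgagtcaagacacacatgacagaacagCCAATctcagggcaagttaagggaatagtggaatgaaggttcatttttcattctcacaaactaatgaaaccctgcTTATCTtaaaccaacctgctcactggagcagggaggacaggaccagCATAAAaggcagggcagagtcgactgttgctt
Searched on both strands, with no overlap between matches, it held 1 CCAAT, found in 32.0% of 35116 promoters, 1 AGATAA in reverse, found in 9.17%, and 1 CATAAA, found in 9.64%. CCACCC, the core of the box bound by KLF1, was found in 31.3% of promoters and not in this window, and TGATAA and TATAAA were not found either. The matches describe letters and do not show binding.

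For the most abundant gene of each locus, the genes with the closest profile over the 4 libraries were listed. The measure was the distance between log2 CPM values centred on their mean, over 2270 other genes with a mean of at least 100 CPM. AP2A1, UBXN4 and IDH1 were nearest to HBA1, at distances of 0.011, 0.016 and 0.018. NDUFA4, SLC30A9 and RPL10 were nearest to HBG2, at distances of 0.013, 0.013 and 0.014. Each of these 6 genes differed little between groups, with log2 fold changes between 0.067 and 0.11, and none was called (edgeR).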

How the data were processed

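Poly(A)-selected, directional libraries of 4 K562 samples were analysed. The authors deposited estimated counts per gene, not normalized, and 29.9% to 33.6% of each library's values have a fractional part over 1e-06. The submitters' processing notes list fastp 0.20.1, kallisto 0.46.2, DESeq2 1.30.1 and hg38. Their roles and the annotation are not given in the sources used here. The authors also deposited a comparison of the groups, with a mean normalized signal, a log2 fold change, a test score and a p-value for each gene, as its column names give them (per the file headers).

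Counts were rounded, filtered with filterByExpr, scaled with TMM and compared by edgeR 4.0.16 (R 4.3.3) on group alone, at an adjusted p of 0.05. Alternatives used DESeq2 1.42.0, limma 3.58.1, other scalings and filters, the replicate number as a block, pair sums and leaving out each library. Standard errors are the log2 fold change over the square root of F. In simulated counts for this comparison, 150 of 200 genes changed 2-fold were recovered among 14459 tested, with 6 false calls. The share was 149 of 165 at a mean of at least 50 counts and 1 of 35 below.

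All 10 members, JAZF1, SUZ12, a fixed set of regulators and up to 5 further called genes per list were named by rule. Beyond that rule, some regulators and markers were named after their values were seen, as stated where they appear. The members and lists were chosen with earlier results of these data known. Shares and ratios were tested by exact permutation over libraries. Positions and lengths come from GENCODE 29 on GRCh38, which matched 35410 of 35606 gene IDs. Intervals on counts cover counting error only, since no molecular identifiers are stated, and 2 libraries per group limit every SD.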

Additional observations from a re-analysis of the deposited data

How the results depend on the processing

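HBZ, HBE1 and HBG1 rose in all 13 alternatives run for each, and passed the threshold in every one that kept all 4 libraries. With all 4 libraries kept, the number of globin genes called higher lay between 4 and 6, with 0 lower. A fit without 1 library leaves a group whose spread cannot be estimated, so passing there shows little. HBG2 did not pass in the fit reported. It did pass with total counts only (0.12), DESeq2 (0.094), limma-voom (0.096) and no filter (0.087). It also passed with a mean of at least 50 counts (0.12) and with its pair summed (0.14). HBA2 turned to 0.044 in its pair sum with HBA1, likewise a different quantity. When each library was left out in turn, with the lone library assumed to vary like the other group, log2 fold changes ranged from 0.053 to 0.12 for HBG2, -0.095 to 0.027 for HBA2, -0.26 to 2.19 for HBM, 0.16 to 0.48 for HBD and 3.80 to 4.17 for HBB. Across the transcriptome 3643 genes were called, 2407 with DESeq2 and 2045 at an adjusted p under 0.01. Of the locus neighbours 5 were called, 3 with DESeq2, 2 at that threshold and 1 to 6 with a library left out. For DESeq2 the cause was not tested; the stricter threshold lowers counts by construction.

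Per kilobase of the longest transcript, the rise in HBZ share of the alpha locus was 11.8 percentage points against 12.3, that of HBE1 at the beta locus 1.41 against 1.25, and that of all globins among counts 0.422 against 0.156. Per kilobase of the longest protein-coding transcript, a scale chosen after seeing the data, they were 11.1, 1.12 and 0.462. The share of all globins was taken over 35410 genes with the longest transcript and over 19591 with the longest protein-coding one. Without division by length it was taken over all 35606 rows. The effect of these unlike sets was not tested. Globin transcripts are short, so division by length raises their share by construction.

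With the replicate number as a block HBG2 passed (0.096, adjusted p = 0.0192), and the calls of the other globin genes did not change. The deviations of same-numbered libraries correlated at -0.00072 over 14750 genes. With 2 libraries per group, this value cannot show whether same-numbered samples were paired. HBB and HBM had too few counts for a precise fold, and HBM, AHSP and HBB are limited by depth.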
